A study of Drosophila melanogaster with 6 samples.

Results

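The genes described here encode nuclear subunits of the 5 complexes of mitochondrial oxidative phosphorylation, compared between Calment1/4 and CanS adult females of Drosophila melanogaster. Members were chosen by name. A gene belongs if its current symbol starts with ND- (complex I), COX and a digit (complex IV), ATPsyn (complex V) or UQCR (complex III), or is SdhA to SdhD (complex II), Cyt-c1, RFeSP or ox (complex III), and if a probe set carries that symbol and no other. For a gene with several probe sets, the one with the highest mean over the 6 arrays was used. The rule found 72 genes among the 11982 genes with such a probe set. Of these, 54 are ordinary subunit genes, with 27 in complex I, 3 in complex II, 7 in complex III, 7 in complex IV and 10 in complex V. The other 18 carry the name of another subunit followed by L, and such duplicates are known in Drosophila for expression in the testis.

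The comparison sets 3 arrays of Calment1/4, a mutant in the CS10 background, against 3 arrays of CanS, the Canton-S wild type. Both stocks were kept at 25 °C on standard medium, and each array holds RNA pooled from 30 to 35 whole adult females, with no age stated in the sources used. The titles number the arrays as biological replicates. Mutation and stock background differ together, so each difference is between the 2 stocks.

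Oxidative phosphorylation passes electrons from NADH through complex I, or from succinate through complex II, to ubiquinone, then through complex III and cytochrome c to complex IV, which reduces oxygen. Complexes I, III and IV pump protons out of the mitochondrial matrix, and complex V, the ATP synthase, uses their return to make ATP. The subunits are among the most abundant messages of muscle and other tissues of high energy demand, and all complexes except complex II also hold subunits encoded by mitochondrial DNA, none of which was analysed here.

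Each probe set has 1 log2 expression value on each array, so a difference of 1 is a 2-fold change. Array medians lay between 5.84 and 5.91. A percentile rank gives a probe set's mean among all 18769 tested and describes brightness on the array, since probe sets differ in how well they bind. In whole flies, fewer cells of a type and less RNA per cell cannot be told apart. Over the whole table, Calment1/4 replicate 1 correlated with the others of its group at 0.994, against 0.998 between those others. Its correlation with CanS replicate 3 was 0.995, above those within its own group. CanS replicate 3 stood apart little by this measure, at 0.995 and 0.996, against 0.997 between CanS replicates 1 and 2. Both arrays were the lowest of their groups in the yolk, eggshell and ovary markers, as described further on. The medians of the subunits turn on which arrays are used, so each median is given with its values when single arrays are left out.

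No subunit message was called different between the stocks. None of the 72 genes passed an adjusted p of 0.05 in limma, where 0.464% of all probe sets did, and the lowest adjusted p was 0.419, for the copy ND-51L1. An unadjusted p below 0.05 was reached by 1 of the 72 genes, ND-51L1, or 1.39%, against 7.67% of all probe sets. The 3 Calment1/4 arrays lay entirely on one side of the 3 CanS arrays in 4 of 72 genes, or 5.56%, against 12.6% of all probe sets. In this count 1 gene was higher (UQCR-11L) and 3 were lower in Calment1/4 (COX7A, ND-51L1, UQCR-14L), where 6.36% and 6.27% of all probe sets stood apart upwards and downwards. The median difference was -0.04 over the 72 genes and 0.00054 over all probe sets. Leaving out Calment1/4 replicate 1 moved the median of the 72 genes to -0.12, and leaving out Calment1/4 replicate 3 moved it to 0.01.

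Intervals of the differences were narrow for most members. The 95% interval of the difference lay within 1.5-fold either way in 71 of 72 genes, or 98.6%, against 92.9% of all probe sets. It lay within 1.25-fold in 49 of 72 genes, against 9940 of 18769 probe sets. The gene whose interval reached beyond 1.5-fold was ND-B8. In 70 of 72 genes the larger of the ranges within the 2 stocks exceeded the difference between the stocks. No share over all probe sets is given for this count, so it is not read as a trait of the members.

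Small differences below 0 were common. The difference was below 0 in 57 of 72 genes, or 79.2%, and in 45 of the 54 ordinary subunit genes, or 83.3%, against 49.8% of all probe sets. The members move together between arrays, as described further on, so they are not independent counts of a direction. The median over the 54 ordinary genes was -0.04 with all arrays, -0.12 without Calment1/4 replicate 1 and -0.09 without CanS replicate 2. Without Calment1/4 replicate 3 it was 0.01, and without CanS replicate 3 it was 0.02. The sign of the median therefore rested on single arrays of both stocks.

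**Figure D1:**
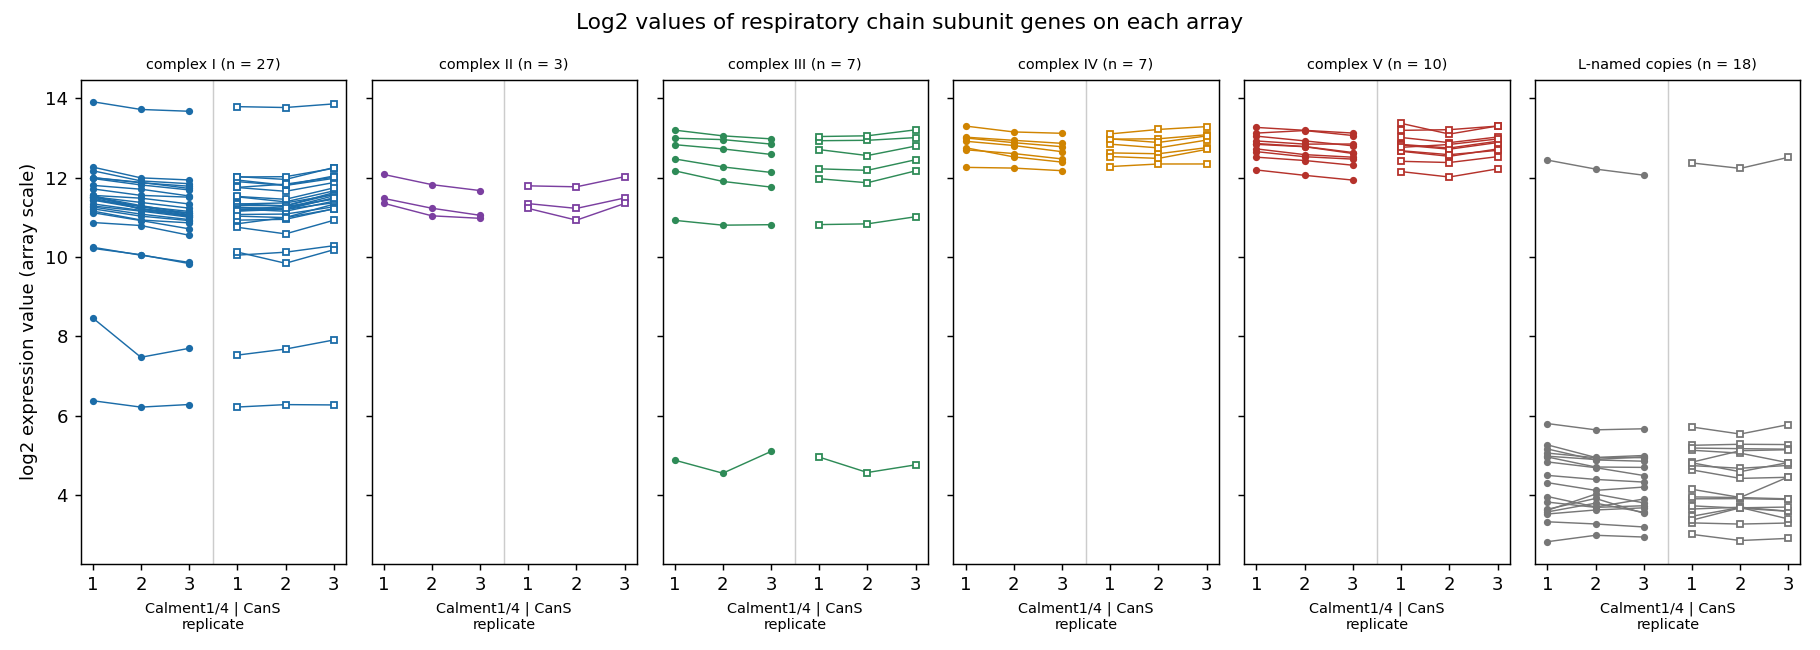
Log2 expression value (vertical axis) of each subunit gene on each array (horizontal axis, Calment1/4 replicates as filled circles, CanS replicates as open squares), with 1 panel per complex and 1 for the L-named copies. Lines join the values of 1 gene within a stock. Most subunit genes sit between 10 and 14 in both stocks, while 17 of 18 copies sit below 6.

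Complex I, the NADH dehydrogenase, was measured through 27 genes, and no member passed the test (lowest adjusted p 0.750). The median difference was -0.04, with 22 genes below 0 and 5 above, and no gene had groups apart. With single arrays left out it ran from -0.12 (without Calment1/4 replicate 1) to 0.04 (without CanS replicate 3). Its members with a percentile rank of at least 80 had group means between 10.03 and 13.76 in Calment1/4 and between 10.05 and 13.80 in CanS, and 2 members were dimmer.

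The brightest complex I gene was ND-MLRQ, whose mammalian counterpart was later found bound to complex IV. Its log2 values were 13.91, 13.71 and 13.67 in Calment1/4, against 13.79, 13.76 and 13.85 in CanS. The highest and the lowest of these 6 values were both Calment1/4 arrays, and the difference was -0.04 (SE 0.09). ND-SGDH, an accessory subunit, had the next highest mean with 12.26, 11.99 and 11.94 in Calment1/4, against 12.01, 12.02 and 12.23 in CanS. Its groups overlapped, with Calment1/4 replicate 1 and CanS replicate 3 on top, and the difference was -0.02 (SE 0.11).

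The core subunits that carry the redox centres showed the same order of arrays. ND-51, the flavoprotein that takes electrons from NADH, had 12.17, 11.91 and 11.84 in Calment1/4, against 12.02, 11.95 and 12.25 in CanS. ND-75, the large iron-sulfur subunit, had 10.21, 10.05 and 9.83 in Calment1/4, against 10.12, 9.84 and 10.18 in CanS. ND-20, which holds the iron-sulfur cluster nearest to ubiquinone, had 11.56, 11.19 and 11.11 in Calment1/4, against 11.25, 11.19 and 11.48 in CanS. In each of the 3 genes Calment1/4 replicate 1 and CanS replicate 3 were the highest of their stocks, and the differences were -0.10 (ND-51), -0.01 (ND-75) and -0.02 (ND-20).

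The lowest difference in complex I was that of ND-B14.7, an accessory subunit, with 11.34, 11.17 and 11.04 in Calment1/4, against 11.33, 11.29 and 11.58 in CanS (difference -0.22, SE 0.11, adjusted p = 0.750 in limma). Its groups overlapped only through Calment1/4 replicate 1. ND-B17.2 and ND-B14.5A, also accessory subunits, followed with differences of -0.17 and -0.14. ND-B8, an accessory subunit, was the least precise member, with 8.46, 7.47 and 7.70 in Calment1/4, against 7.52, 7.68 and 7.91 in CanS (difference 0.17, SE 0.23, 95% interval -0.36 to 0.71). A single array, Calment1/4 replicate 1, held the highest value, while the lowest value was also in Calment1/4. ND-B12 was dim in both stocks, averaging 6.29 ± 0.08 in Calment1/4 females and 6.25 ± 0.03 in CanS females (SD over 3 arrays each). ND-ACP, the mitochondrial acyl carrier protein that also serves fatty acid and lipoic acid synthesis, had 3 probe sets, with differences of -0.03, -0.07 and -0.10. ND-B17 had 2 probe sets that differed in sign, 0.02 for the brighter and -0.04 for the other, both far inside their errors (SE 0.11 each).

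Complex II, succinate dehydrogenase, links the chain to the citric acid cycle and was measured through 3 of its 4 subunits. SdhB, the iron-sulfur subunit, had 11.35, 11.03 and 10.97 in Calment1/4, against 11.22, 10.93 and 11.35 in CanS. SdhC, a membrane anchor, had 12.08, 11.82 and 11.67 in Calment1/4, against 11.79, 11.77 and 12.02 in CanS. SdhD, the other anchor, had 11.47, 11.23 and 11.05 in Calment1/4, against 11.34, 11.22 and 11.48 in CanS. The groups overlapped in all 3 genes, and the differences were -0.04 (SE 0.14), -0.0025 (SE 0.12) and -0.10 (SE 0.12) in that order of genes, with a lowest adjusted p of 0.969. Their median, -0.04, was -0.16 without Calment1/4 replicate 1 or without CanS replicate 2, and 0.05 without CanS replicate 3.

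Complex III, the cytochrome bc1 complex, had 7 genes with a median difference of -0.02, 4 below 0 and 3 above, and a lowest adjusted p of 0.995. That median became -0.08 if Calment1/4 replicate 1 was left out, and 0.03 if either Calment1/4 replicate 3 or CanS replicate 3 was. Cyt-c1, the haem subunit that hands electrons to cytochrome c, had 12.83, 12.72 and 12.58 in Calment1/4, against 12.70, 12.55 and 12.79 in CanS (difference 0.03, SE 0.10). RFeSP, the Rieske iron-sulfur protein, had 12.17, 11.90 and 11.76 in Calment1/4, against 11.97, 11.87 and 12.17 in CanS (difference -0.06, SE 0.13). Both genes reached nearly the same top value in each stock.

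The brightest complex III genes were UQCR-14 and UQCR-6.4, small accessory subunits. UQCR-14 had 13.19, 13.05 and 12.97 in Calment1/4, against 13.03, 13.05 and 13.20 in CanS. UQCR-6.4 had 12.99, 12.96 and 12.84 in Calment1/4, against 12.93, 12.94 and 13.01 in CanS. Both differed by less than 1 SE, with -0.02 (SE 0.09) for UQCR-14 and -0.03 (SE 0.08) for UQCR-6.4. UQCR-11 was the dimmest ordinary subunit gene, at a percentile rank of 38.7, with 4.88, 4.55 and 5.10 in Calment1/4, against 4.96, 4.57 and 4.76 in CanS.

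Complex IV, cytochrome c oxidase, had 7 genes, all with a difference below 0 and a median of -0.05, and none passed the test (lowest adjusted p 0.887). Leaving out Calment1/4 replicate 1 gave a median of -0.11, leaving out Calment1/4 replicate 3 gave 0.0087, and leaving out CanS replicate 3 gave -0.0031. It held the 1 ordinary subunit gene whose groups stood apart. COX7A, a small accessory subunit, had 12.26, 12.24 and 12.17 in Calment1/4, against 12.28, 12.34 and 12.34 in CanS. All 3 Calment1/4 values were lower, the nearest by a narrow margin, and the difference was -0.10 (SE 0.08, adjusted p = 0.903 in limma).

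COX4, which in mammals takes part in the control of the enzyme by ATP, had 13.00, 12.88 and 12.78 in Calment1/4, against 12.97, 12.98 and 13.08 in CanS (difference -0.12, SE 0.09). COX7B, the brightest gene of the complex, had 13.30, 13.15 and 13.11 in Calment1/4, against 13.10, 13.21 and 13.28 in CanS (difference -0.01, SE 0.09). COX8, the next brightest among the members of the complex, had 13.02, 12.94 and 12.86 in Calment1/4, against 12.97, 12.88 and 13.05 in CanS (difference -0.03, SE 0.08). In COX4, COX7B and COX8 the groups overlapped.

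Complex V, the ATP synthase, had 10 genes, 9 of them with a difference below 0 and a median of -0.05, and none passed the test (lowest adjusted p 0.889). Its median ran from -0.10, with Calment1/4 replicate 1 left out, to -0.00010, with Calment1/4 replicate 3 left out. ATPsynbeta, the catalytic subunit, had 12.65, 12.52 and 12.46 in Calment1/4, against 12.66, 12.53 and 12.72 in CanS (difference -0.09, SE 0.09). ATPsynC, the subunit of the membrane rotor ring, had 13.12, 13.18 and 13.06 in Calment1/4, against 13.36, 13.09 and 13.30 in CanS (difference -0.13, SE 0.09). ATPsynF, the brightest of these 10 genes together with ATPsynC, had 13.26, 13.19 and 13.12 in Calment1/4, against 13.19, 13.20 and 13.30 in CanS (difference -0.04, SE 0.08). Groups overlapped in all 3.

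The stalk genes of the ATP synthase gave differences of at most 0.09 in size. ATPsyngamma, the rotating central stalk, was the 1 gene of the complex above 0, with a difference of 0.01 (SE 0.09), while its other probe set gave -0.06 (SE 0.09). ATPsyndelta, also of the central stalk, differed by -0.02. The peripheral stalk subunits ATPsynB, ATPsynD, ATPsynO and ATPsynCF6 differed by -0.09, -0.07, -0.05 and -0.05.

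**Figure D2:**
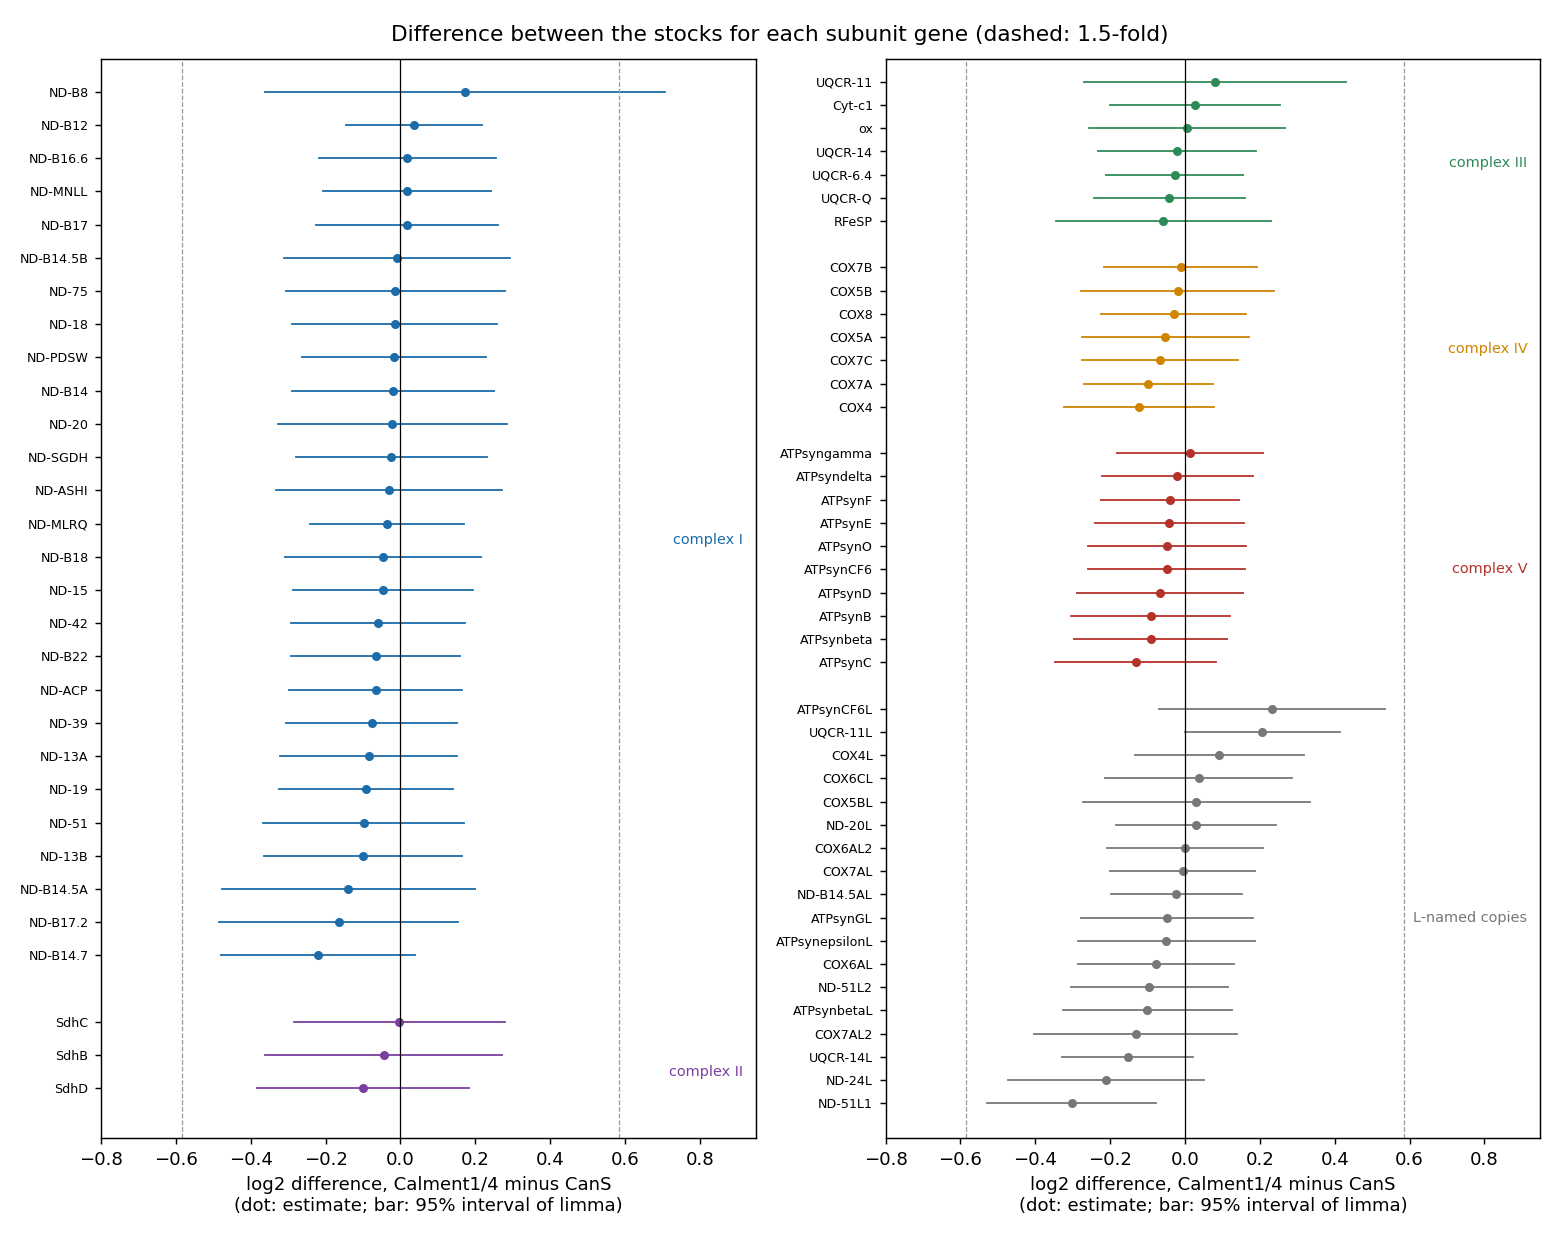
Log2 difference, Calment1/4 minus CanS (horizontal axis), for each of the 72 genes (vertical axis), with the limma estimate as a dot and its 95% interval as a bar. Dashed lines mark 1.5-fold either way, and the bar of ND-B8 crosses one of them. The intervals of all genes but ND-51L1 cover 0, and that of ND-51L1 runs from -0.53 to -0.08.

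The 18 L-named copies are duplicates of subunits of complexes I, III, IV and V. In 17 of 18 the percentile rank was below 50, and the testis markers, 29 measured of 34 listed, had a median rank of 17.0, with a range of 0.517 to 73.7. Whole females hold no testis, and none of the testis markers passed the test. The summed linear level of the testis markers was 1032 to 1176 in Calment1/4 and 961 to 1149 in CanS. A large part of this sum came from the brightest of them, twe, with means of 8.38 in Calment1/4 and 8.39 in CanS. A log2 summary has no zero, and detection above background was not assessed, so differences among the dim copies may lie in signal that is not their message.

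The copies had a median difference of -0.04, with 12 below 0 and 6 above, and none passed the test. With single arrays left out the median ran from -0.07 (Calment1/4 replicate 1 left out) to -0.0037 (Calment1/4 replicate 3 left out). ND-51L1, a copy of ND-51, had 5.16, 4.88 and 4.85 in Calment1/4, against 5.25, 5.28 and 5.27 in CanS. All Calment1/4 values were lower, and the difference was -0.30 (SE 0.10, 95% interval -0.53 to -0.08, adjusted p = 0.419 in limma). The difference was -0.40 without Calment1/4 replicate 1 (adjusted p = 0.0599) and -0.37 with array weights (adjusted p = 0.0570), and over all alternatives its adjusted p ranged up to 1.00. ND-51L2, the other copy of ND-51, differed by -0.10 (SE 0.09) with overlapping groups, as did ND-51 itself (-0.10, SE 0.12).

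The groups stood apart in 16.7% of the copies, against 12.6% of all probe sets. These were ND-51L1 and the complex III copies UQCR-11L and UQCR-14L, which were dim, at percentile ranks of 39.3 and 18.7. UQCR-11L, a copy of UQCR-11, had 4.98, 4.89 and 4.96 in Calment1/4, against 4.81, 4.59 and 4.82 in CanS (difference 0.21, SE 0.09, adjusted p = 0.651). UQCR-14L, a copy of UQCR-14, had 3.82, 3.69 and 3.73 in Calment1/4, against 3.90, 3.91 and 3.89 in CanS (difference -0.15, SE 0.08, adjusted p = 0.734). The partners had overlapping groups and differences of 0.08 for UQCR-11 and -0.02 for UQCR-14. UQCR-11 was itself dim, at a percentile rank of 38.7, and no brighter than its copy.

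The other dim copies overlapped between the stocks. ATPsynCF6L had the highest difference of the copies, with 3.61, 4.02 and 3.80 in Calment1/4, against 3.37, 3.68 and 3.70 in CanS (difference 0.23, SE 0.13). ND-24L had 4.96, 4.71 and 4.70 in Calment1/4, against 5.13, 5.05 and 4.81 in CanS (difference -0.21, SE 0.11), and its partner ND-24 was not analysed here. Among complex I copies, ND-20L differed by 0.03 and ND-B14.5AL by -0.02. Among complex IV copies, COX4L differed by 0.09, COX6CL by 0.04, COX5BL by 0.03, COX6AL2 by -0.00068, COX7AL by -0.0064 and COX6AL by -0.08. Among complex V copies, ATPsynGL and ATPsynepsilonL differed by -0.05 and ATPsynbetaL by -0.10.

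COX7AL2 departed from the testis-type label. Its rank was 98.6, and it had 12.44, 12.21 and 12.06 in Calment1/4, against 12.37, 12.23 and 12.51 in CanS (difference -0.13, SE 0.12, adjusted p = 0.925). The arrays fell in the order seen in the ordinary subunits, with Calment1/4 replicate 1 and CanS replicate 3 on top and Calment1/4 replicate 3 lowest. Its correlation with the median of the ordinary subunits over the 6 arrays was 0.96, the highest of the 18 copies.

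What the ordinary subunit genes shared was their variation among arrays of 1 stock. The median deviation of the 54 genes from their own means was 0.12, -0.03 and -0.16 on the Calment1/4 arrays, against -0.02, -0.06 and 0.14 on the CanS arrays. Over all probe sets the same medians stayed between -0.01 and 0.01. The spread within Calment1/4 was thus larger than the distance between the stocks, whose mean deviations were -0.02 in Calment1/4 and 0.02 in CanS.

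The order of arrays recurred gene by gene. The highest of the 6 arrays was Calment1/4 replicate 1 or CanS replicate 3 in 52 of 54 ordinary genes, or 96.3%, against 38% of all probe sets. These arrays were each the highest of their stock in 51 of 54, or 94.4%, against 21.4% of all probe sets. Calment1/4 replicate 3 was the lowest of the 6 in 44 of 54, or 81.5%, against 19.5% of all probe sets. The arrays were singled out after their values were seen, so these shares are descriptions.

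Each complex showed the order. Calment1/4 replicate 1 and CanS replicate 3 topped their stocks in 26 of 27 genes of complex I, 3 of 3 of complex II, 6 of 7 of complex III, 7 of 7 of complex IV and 9 of 10 of complex V. The exceptions were ND-B12, UQCR-11 and ATPsynC. The range of the array medians was widest in complex II, 0.21, -0.07 and -0.19 in Calment1/4, against 0.04, -0.09 and 0.18 in CanS. It was narrowest in complex III, 0.11, -0.03 and -0.11 in Calment1/4, against -0.02, -0.10 and 0.12 in CanS, and nearly as narrow in complex V. The median within-stock SD of the ordinary genes was 0.139 in Calment1/4 and 0.120 in CanS, against 0.115 and 0.111 over all probe sets in the same order of stocks.

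**Figure D3:**
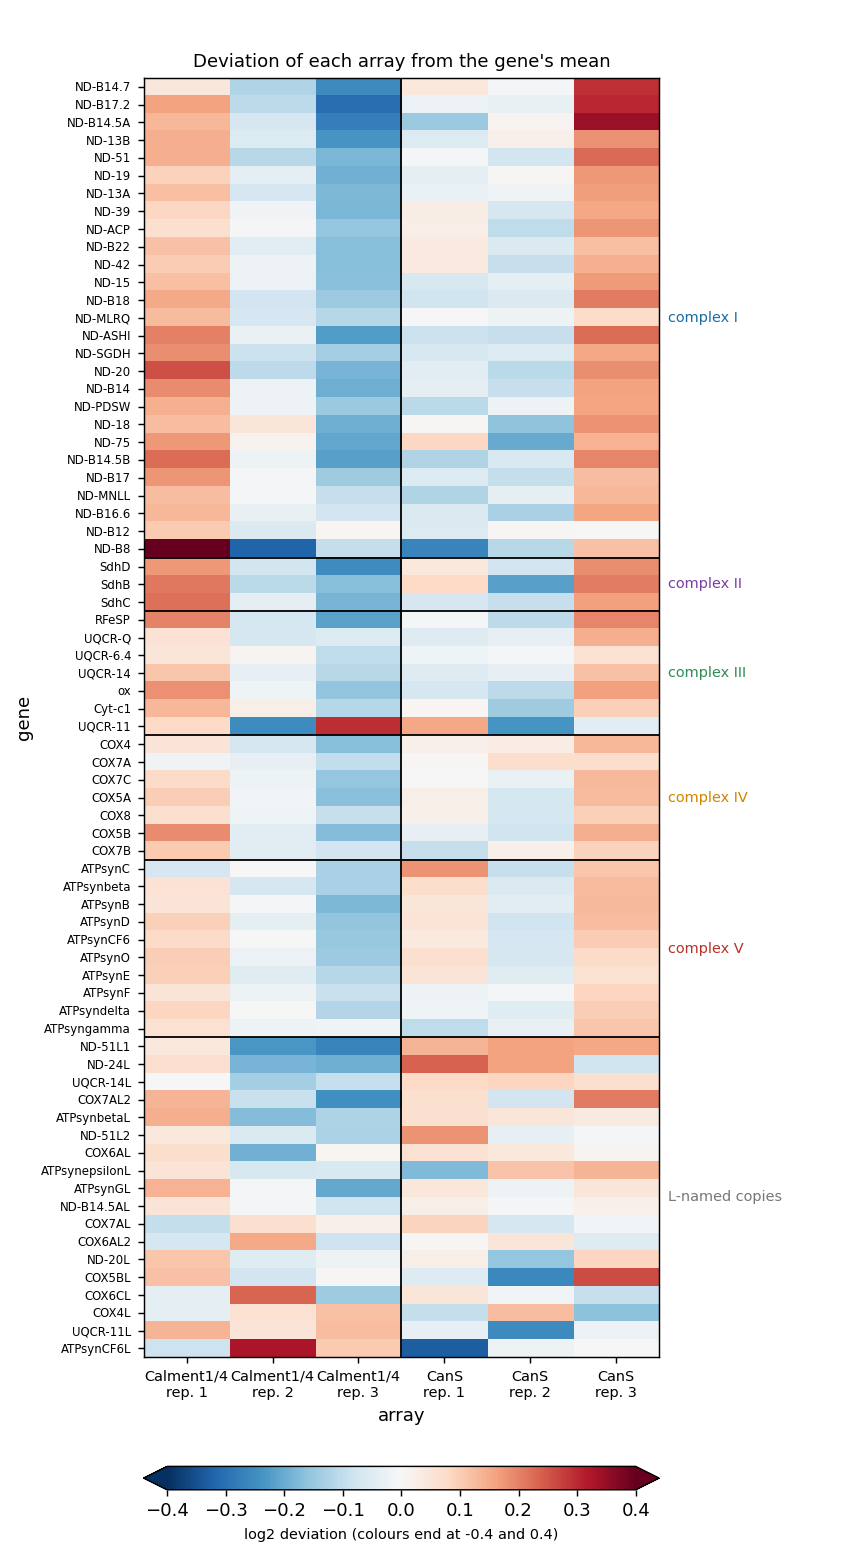
Deviation of each array (columns, Calment1/4 replicates left of CanS replicates) from the mean of each gene (rows, grouped by complex), in log2 units by colour, with colours ending at -0.4 and 0.4. Red columns recur at Calment1/4 replicate 1 and CanS replicate 3 through complexes I to V, and a blue column at Calment1/4 replicate 3, but less regularly among the L-named copies.

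Fewer of the copies followed this order. In 6 of 18 copies, or 33.3%, Calment1/4 replicate 1 and CanS replicate 3 were each the highest of their stock, and the median deviations of the copies stayed between -0.08 and 0.05. The correlation of a gene with the median profile of the 54 ordinary genes had a median of 0.95 over those genes, each of which is itself part of the profile. The median was 0.41 over the copies and 0.07 over all probe sets. A correlation above 0.8 was reached by 48 of 54 ordinary genes, 3 of 18 copies and 1521 of 18769 probe sets. These correlations run over 6 arrays that share every array effect, and they carry no test.

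Tissue markers moved between the same arrays. The yolk, eggshell and ovary markers, 25 measured of 28 listed, had median deviations of -0.38, 0.25 and 0.27 in Calment1/4, against 0.11, 0.14 and -0.43 in CanS. They were lowest on the 2 arrays where the subunits were highest. The summed linear level of this list was 108302 to 155296 in Calment1/4 and 99557 to 147931 in CanS, and 1 of its genes rose (adjusted p = 0.0435).

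The muscle markers, 19 of 25 listed, had 0.07, -0.05 and -0.16 in Calment1/4, against 0.11, -0.21 and 0.21 in CanS. Within each stock their arrays stood in the same order as those of the subunits, with Calment1/4 replicate 1 and CanS replicate 3 highest, and none passed the test. Their summed level was 65122 to 77270 in Calment1/4 and 64039 to 89739 in CanS. The gut markers, 27 of 33, had -0.02, -0.17 and -0.14 in Calment1/4, against 0.02, 0.18 and 0.21 in CanS, with a summed level of 145087 to 152758 in Calment1/4 and 158830 to 166697 in CanS. None of the gut markers passed the test, though their summed levels did not overlap between the stocks. Groups stood apart in 11 of 27 gut markers, or 40.7%, against 12.6% of all probe sets, and all 11 were lower in Calment1/4.

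The fat body markers, 13 of 18, had -0.10, -0.08 and -0.08 in Calment1/4, against -0.01, 0.05 and 0.02 in CanS, and 1 of them fell (adjusted p = 0.0180). Groups stood apart in 46.2% of the fat body markers, 2 higher and 4 lower in Calment1/4, against 12.6% of all probe sets. Their summed level was 46717 to 48415 in Calment1/4 and 46335 to 48230 in CanS. The brightest genes weigh most in such a sum, here Cyp4g1, with means of 14.25 in Calment1/4 and 14.12 in CanS. The neuron markers, 12 of 16, had 0.05, 0.11 and 0.02 in Calment1/4, against 0.14, -0.26 and -0.03 in CanS. Their summed level was 14362 to 16113 in Calment1/4 and 12468 to 14799 in CanS. The part of tissue make-up in the array order of the subunits was not tested.

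The 3' minus 5' differences of the control probe sets for actin, a measure of RNA integrity, were 2.51, 2.57 and 2.56 in Calment1/4, against 2.45, 2.37 and 2.53 in CanS. For GAPDH they were 1.44, 1.33 and 1.35 in Calment1/4, against 1.37, 1.38 and 1.23 in CanS. For eIF-4a they were 3.05, 3.06 and 3.06 in Calment1/4, against 2.96, 3.04 and 2.95 in CanS. For 18S RNA they were 0.85, 0.74 and 0.81 in Calment1/4, against 0.84, 0.46 and 0.38 in CanS. The eIF-4a values of all Calment1/4 arrays lay above those of all CanS arrays. Ranked over all arrays of both stocks, none of these 4 controls put Calment1/4 replicate 1 and CanS replicate 3 together at one end. Ranked within each stock, eIF-4a was lowest on both, though by little in Calment1/4 (3.053 against 3.057 and 3.056). In actin, GAPDH and 18S RNA, Calment1/4 replicate 1 and CanS replicate 3 stood at opposite ends of their stocks. The part of RNA integrity in the array order was not tested. With both of these arrays left out, an alternative chosen after earlier results were known, the median of the ordinary subunits was -0.05 and no member passed the test.

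**Figure D4:**
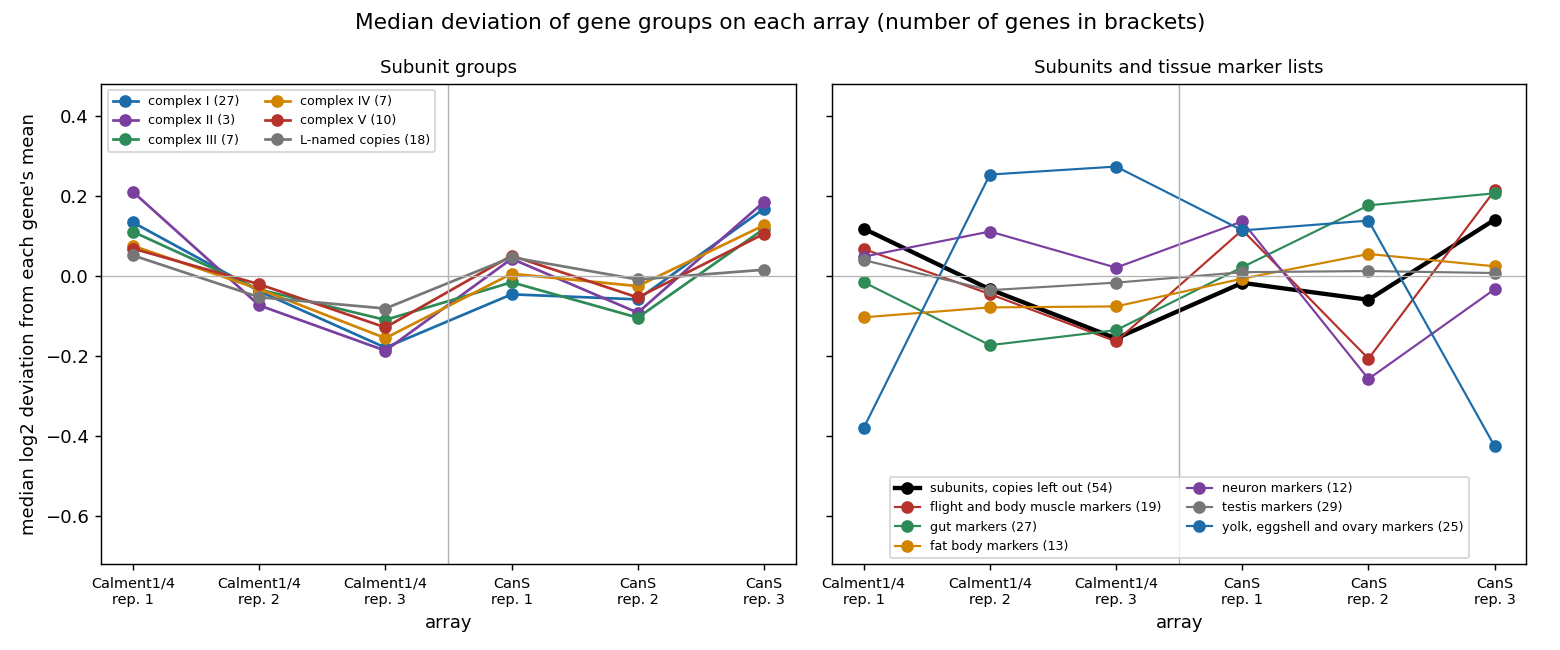
Median log2 deviation from each gene's mean (vertical axis) on each array (horizontal axis, Calment1/4 replicates left of CanS replicates), for the complexes and copies in the left panel and for the ordinary subunits and tissue marker lists in the right panel. Lines join the points of 1 group of genes and have no time order. The subunits peak on Calment1/4 replicate 1 and CanS replicate 3 (0.12 and 0.14), where the yolk, eggshell and ovary markers are lowest (-0.38 and -0.43).

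Other genes of the pathway also gave no call. The list of subunits and copies outside the name rule held 16 names, which matched 10 RefSeq genes. Of these genes 8 were measured, and none passed the test. Among them, blw, the alpha subunit that pairs with ATPsynbeta, differed by -0.06, and levy and cype, the COX6A and COX6C subunits of complex IV, by -0.04 and -0.05. The epsilon subunit of the ATP synthase, sun, differed by 0.04. The 2 members of smallest p were copies, Cyt-c1L at -0.20 (adjusted p = 0.821) and SdhAL at -0.08 (adjusted p = 0.927).

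Assembly factors build and insert subunits and cofactors. Their list held 50 names, which matched 19 RefSeq genes, and 18 of these genes were measured. None passed the test. The median difference of the assembly factors was 0.04, with 13 above 0 and 5 below. The share below 0 was 27.8%, against 49.8% of all probe sets, and it carries no test. Cox11, which inserts copper into complex IV, had 7.50, 7.53 and 7.34 in Calment1/4, against 7.56, 7.80 and 7.63 in CanS, and its groups stood apart (difference -0.20, SE 0.10, adjusted p = 0.689). Coa7, an assembly factor of complex IV, had 9.05, 9.13 and 9.33 in Calment1/4, against 8.96, 9.18 and 8.95 in CanS (difference 0.14, SE 0.11).

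The list of carriers, pores and regulators of mitochondrial biogenesis held 31 names, which matched 27 RefSeq genes. Of these genes 23 were measured, with a median of 0.0093 and none past the threshold. ewg, the Drosophila counterpart of the mammalian nuclear respiratory factor NRF-1, had 9.00, 9.13 and 9.30 in Calment1/4, against 9.02, 8.95 and 8.77 in CanS (difference 0.23, SE 0.11, adjusted p = 0.669). Its groups overlapped through Calment1/4 replicate 1 and CanS replicate 1, and its lowest array was CanS replicate 3, where the subunits were highest. CoRest, a transcriptional corepressor, had 8.97, 9.19 and 9.20 in Calment1/4, against 8.92, 8.93 and 8.97 in CanS, and its groups stood apart (difference 0.18, SE 0.09, adjusted p = 0.699). Groups also stood apart for Ant2, an ADP/ATP carrier, at 0.15, and for mtTFB2, a factor for transcription of mitochondrial DNA, at -0.16, which makes 3 of 23 genes, or 13%, against the 12.6% of all probe sets. sesB, the main ADP/ATP carrier, differed by -0.02, and porin, the outer membrane channel, by -0.0046.

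Some subunits sit on probe sets shared with another gene and are therefore not members. The probe set of COX6B and CG18809 differed by -0.0062, that of ATPsynG and beat-Vb by 0.0012 and that of ND-AGGG and CG40472 by -0.17, and none passed the test. Of 90 genes that fit the name rule in the RefSeq annotation, 18 had no probe set of their own and were not analysed here.

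Chromosome and gene length were compared as descriptions. Of the 54 ordinary genes, 10 lie on the X chromosome, or 18.5%, against 15.7% of all single-symbol genes with a known arm. None of the 18 copies lies on the X. ATPsynbeta is the 1 member on chromosome 4. The median gene length was 1148 bases in the ordinary genes and 716.5 bases in the copies, against 2263 bases over all single-symbol genes.

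The genes outside the members and the lists whose values followed the median of the ordinary subunits most closely over the 6 arrays were NP15.6 (r = 0.990), CG3505 (r = 0.990), stck (r = 0.990), Ugt303A1 (r = 0.986) and Mco1 (r = 0.985). NP15.6, whose RefSeq synonyms include NDUFB11, a complex I subunit in mammals, meets neither the name rule nor the list of subunits under other names. It had 11.47, 11.27 and 11.14 in Calment1/4, against 11.26, 11.26 and 11.50 in CanS. The differences of the 5 were -0.05, -0.09, -0.0079, -0.09 and -0.07 in the order named. Their groups overlapped, which follows from the choice, since the profile they were picked to match overlapped between the stocks.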

How the data were processed

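Total RNA of whole females was labelled as biotin cRNA and hybridised to 1-colour Affymetrix arrays, per the labels' protocols. The deposited values are log2 summaries, 1 per probe set and array. RMA, MAS5 and affy 1.36.0 are named, without their roles, in the submitters' processing notes. If the arrays were scaled to each other, a shift of most messages at once is hidden. The table holds 18952 probe sets, and the 183 controls were left out of the tests.

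Symbols came from the platform annotation, updated to RefSeq (Release 6 plus ISO1 MT), and all 72 members matched. Copies were taken from symbols that add L to another subunit's symbol, or, for 3 (COX6AL, COX6AL2, COX6CL), to a RefSeq synonym of it. Members and lists were chosen with earlier results of these data known.

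The test was two-sided, by lmFit and eBayes of limma 3.58.1 (R 4.3.3) with genotype alone, adjusted by Benjamini-Hochberg over 18769 probe sets, with a threshold of 0.05. Adjusted p-values in the text come from this fit unless an alternative is named. Replicates follow the titles. The number of arrays limits the precision, and member standard errors ran from 0.08 to 0.23. The fit was tested on simulated data.

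Named genes are members past the threshold, per complex the members whose groups stood apart (up to 2 at each end) and the 2 brightest, all of complex II, all copies with their partners, members whose probe sets differ in sign, from each pathway list the 2 of smallest p, and the 5 genes most alike in pattern. Others named in the text were chosen after their values were seen. Same-numbered arrays of the stocks did not deviate together (correlations -0.29, 0.20 and -0.43), so the numbers were not used as pairs. Alternatives were a repeated quantile normalization, centring, a filter on the dimmest 33.3%, trend and robust eBayes, array weights, a replicate block, a mean over a gene's probe sets, a threshold of 0.01, each array left out and, added later, both low-yolk arrays left out and copies by current symbol alone. A planned promoter motif search was not run.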

Additional observations from a re-analysis of the deposited data

How the results depend on the processing

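No member passed the threshold under any alternative, with a lowest adjusted p of 0.0570. The medians of the complexes and of the copies moved by less than the spread between arrays, also with copies defined by current symbol alone. The median of all 72 members lay between -0.12 and 0.01 with single arrays left out. The count over the whole table, 87, moved more. It was 337 with array weights, 228 with both low-yolk arrays left out, 38 at an adjusted p of 0.01 and 38 to 281 with single arrays left out, 38 without Calment1/4 replicate 2 and 281 without Calment1/4 replicate 1. The replicate block gave 30 calls in the whole table and none among the members (lowest adjusted p 0.731). The causes were not tested.

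Differences near 0 changed sign, and none of them was called under any alternative. Array weights gave ATPsyngamma -0.0042, COX6AL2 0.055, COX7AL 0.042 and ND-B17 -0.016. Centring on array medians gave COX6AL2 0.0085, COX7AL 0.0028, SdhC 0.0067 and stck 0.0013. Leaving out both low-yolk arrays gave COX6AL2 0.0080 and COX7AL 0.032. The mean over a gene's probe sets gave ATPsyngamma -0.024 and ND-B17 -0.013. Repeated quantile normalization gave ATPsynCF6 0.00013, COX5B 0.012, COX6AL2 0.022, COX7AL 0.022, COX8 0.026, SdhC 0.00067, UQCR-14 0.0052, UQCR-6.4 0.0057, cype 0.0072 and levy 0.0045. With single arrays left out, the log2 differences ranged as follows. The ranges were ATPsynCF6 -0.099 to 0.014, ATPsynGL -0.13 to 0.042, ATPsynepsilonL -0.15 to 0.0067, ATPsyngamma -0.033 to 0.073, CG3505 -0.25 to 0.043, COX5B -0.12 to 0.063, COX5BL -0.091 to 0.17 and COX6AL -0.13 to 0.00047. Those of further copies and subunits were COX6AL2 -0.076 to 0.040, COX6CL -0.072 to 0.12, COX7AL -0.041 to 0.040, COX7B -0.066 to 0.031, COX8 -0.072 to 0.0095, Mco1 -0.16 to 0.022, ND-20 -0.16 to 0.066 and ND-20L -0.040 to 0.079. In complexes I and II, and for NP15.6, they were ND-B14.5AL -0.054 to 0.011, ND-B17 -0.066 to 0.093, ND-MLRQ -0.11 to 0.011, ND-SGDH -0.12 to 0.048, NP15.6 -0.14 to 0.031, SdhB -0.16 to 0.046, SdhC -0.11 to 0.090 and SdhD -0.21 to 0.00075. For the rest they were UQCR-11 -0.046 to 0.23, UQCR-14 -0.083 to 0.031, UQCR-6.4 -0.058 to 0.016, Ugt303A1 -0.21 to 0.037, cype -0.11 to 0.024, levy -0.084 to 0.0031, stck -0.043 to 0.025 and sun -0.0044 to 0.087. The number of arrays and the brightness of a probe set limit what can be seen.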
